A study of Mus musculus with 2 samples.

Results

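The Mir126 locus holds 2 annotated mouse microRNA genes, Mir126a and Mir126b, which overlap on opposite strands inside the gene Egfl7. They were found by their gene names in GENCODE M21 and are 2 of the 2202 microRNA genes in the counts. MicroRNA libraries were made from the heart of female B6CASTF1/J mice, F1 hybrids of C57BL/6J and CAST/EiJ, at an age of 14 days. There was 1 group of 2 biological replicates, with no treatment and no second genotype or tissue, so the data give the level of the locus in the young heart and its spread between 2 libraries. For replicate 1 a label speaks of 3 females and for replicate 2 of a single one, and whether animals were pooled is not stated. The labels give the RNA size range as under 30 bases.

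MicroRNAs are cut from hairpin transcripts into short mature strands, which guide Argonaute proteins to messenger RNAs through the seed, bases 2 to 8 of the mature strand, and lower their output. Egfl7 codes for a secreted protein of endothelial cells, the lining of blood vessels, and miR-126 is known as the microRNA that marks these cells. In endothelium it represses Spred1 and Pik3r2, inhibitors of growth factor signalling, and it is needed for the integrity of growing vessels. The heart is rich in capillaries, and whole tissue holds endothelial, muscle, stromal and blood cells together, so fewer cells of a type and less RNA per cell cannot be told apart here.

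The mature sequences are shown because the 2 genes read the same stretch of DNA in opposite directions and yet carry different seeds. RefSeq's table on GRCm38.p6 holds 3 mature strands of the locus, printed 5′ to 3′ with the seed in capitals; miR-126a-5p has no entry in it.
miR-126a-3p: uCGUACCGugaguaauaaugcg
miR-126b-5p: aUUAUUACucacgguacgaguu
miR-126b-3p: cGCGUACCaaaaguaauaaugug
None of the 3 seeds occurs in another of the 1738 mature microRNAs of the table; the seed of miR-126a-5p was not compared. miR-126a-3p and miR-126b-5p lie over the same 19 bases on opposite strands, while miR-126b-3p lies in the other arm.

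The hairpins are shown because their overlap decides how reads can be counted, with the mature strands above in capitals.
Mir126a: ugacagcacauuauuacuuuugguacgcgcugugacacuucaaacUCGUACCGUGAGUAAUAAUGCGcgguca
Mir126b: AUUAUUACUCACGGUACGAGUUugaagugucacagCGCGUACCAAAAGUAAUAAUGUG
Mir126a (ENSMUSG00000065540.1) has 73 bases on the plus strand of chromosome 2, from 26591357 to 26591429 in mm10. Mir126b (ENSMUSG00000105799.1) has 58 bases on the minus strand, from 26591363 to 26591420. All 58 bases of Mir126b are the exact reverse complement of the inner part of Mir126a, which alone has a further 6 bases before and 9 bases after them. RNAfold gave the Mir126a hairpin 27 base pairs and -31.2 kcal/mol, and the Mir126b hairpin 21 base pairs and -19.3 kcal/mol. Neither hairpin shared a stretch of 20 bases with any other annotated microRNA hairpin.

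Egfl7 runs on the plus strand from 26580014 to 26593120, in the same direction as Mir126a and against Mir126b. Of its 19 annotated transcripts, 9 span Mir126a. In 8 of these, 7 of them protein coding, the hairpins lie within an intron, most often the one from 26591064 to 26591663. Only Egfl7-206, a transcript annotated as a retained intron, has an exon over the hairpins, from 26590899 to 26591563. A transcript of Gm20532 annotated as a target of nonsense-mediated decay also spans the locus on the plus strand.

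**Figure D1:**
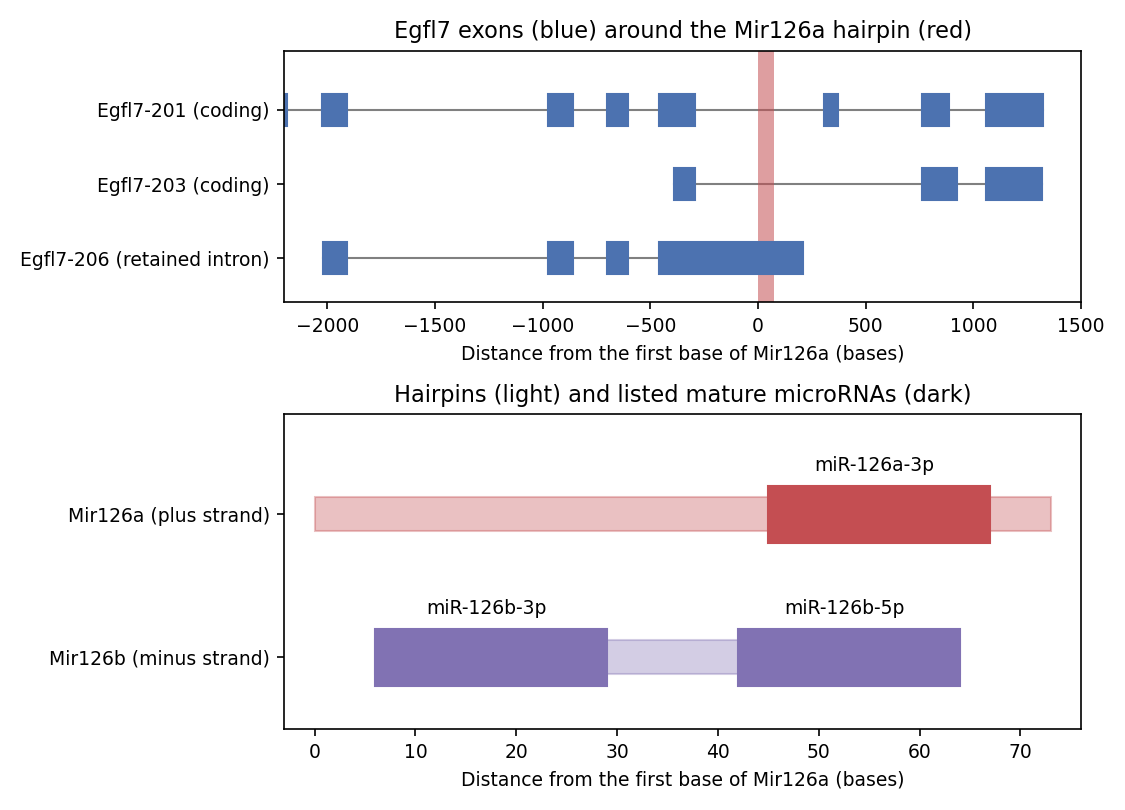
Upper panel, exons of 3 Egfl7 transcripts against the distance from the first base of Mir126a, in bases; lower panel, the 2 hairpins and the mature microRNAs listed by RefSeq on the same scale. The hairpin lies between exons in the coding transcripts and within an exon of the retained-intron transcript, and the 58 bases of Mir126b sit wholly within the 73 bases of Mir126a.

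Nearly every read of the locus came from the strand of Mir126a. Mir126a had 224728 reads on its own strand in replicate 1 and 193669 in replicate 2. Mir126b had 3 reads in replicate 1 and 0 in replicate 2. In replicate 1, Mir126a thus had 74909 reads for each read of Mir126b (exact 95% counting interval 25632 to 363245), and in replicate 2 it had at least 64556-fold more, taking 3 reads as the limit that a count of 0 allows. The labels give RNA of under 30 bases, the size of mature strands, so levels were not divided by hairpin length; read positions and lengths were not analysed here. The counts do not separate the 5p from the 3p arm, since both are added up under the gene.

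Mir126b passed neither the minimum of 10 reads in each library used to call a gene detected nor that of 10 reads in sum used for testing. Its share of the reads of both genes was 0.00133% in replicate 1 (exact Clopper-Pearson interval 0.000275 to 0.00390). In replicate 2 it was 0 of 193669, for which the exact interval reaches 0.00190%. For comparison, 2135 microRNA genes overlap no other microRNA gene, and reads on the opposite strand made up 0.00330% of their reads in replicate 1 (0.00275 to 0.00392) and 0.00257% in replicate 2 (0.00194 to 0.00333). The share of Mir126b was thus below the pooled share of opposite-strand reads at genes with no annotated partner in both libraries, and in replicate 1 its interval covered that share. This pooled share came from few genes: of 217 such genes with at least 100 reads in replicate 1, 208 had 0 opposite-strand reads. With at least 10000 reads, 39 of 43 such genes in replicate 1 and 27 of 28 in replicate 2 had 0. The pooled share therefore cannot show whether the 3 reads of Mir126b are background. By the minimum of 10 reads in each library, Mir126b was not detected. Intervals and limits cover counting error only, because without molecular identifiers a read need not be a separate molecule.

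The strand columns of the counts show how far the call depends on strand. Counted without strand, Mir126a kept 30 reads in replicate 1 and 8 in replicate 2, and Mir126b had 0 in both. The missing 224698 and 193661 reads of Mir126a equal exactly the numbers on the opposite strand of Mir126b, as for reads that overlap both genes. They made up 16.6% and 22.9% of all reads that the unstranded column set aside as ambiguous between genes. In the opposite direction, the 3 opposite-strand reads of Mir126a in replicate 1 match the 3 own-strand reads of Mir126b. By the unstranded column Mir126a stood at rank 296, against rank 5 by its own strand.

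**Figure D2:**
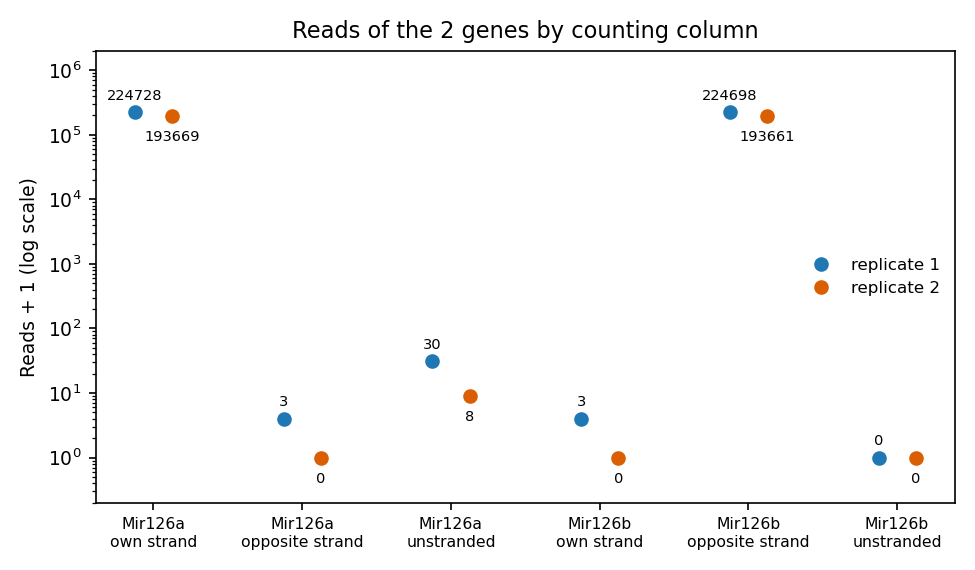
Reads plus 1 on a log scale for Mir126a and Mir126b in the own-strand, opposite-strand and unstranded columns; each point is 1 library and carries its read number. The own-strand reads of Mir126a (224728 and 193669) reappear almost in full on the opposite strand of Mir126b, and 30 and 8 remain without strand.

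Such one-sided loci were common among overlapping microRNA genes. The annotation holds 32 pairs that overlap on opposite strands, of which 25 reached 10 reads in each library, and Mir126a with Mir126b was the pair with the second most reads. In 17 of the 25 pairs the less abundant gene had 0 reads in both libraries, and in 8 it had at least 1 read. The pair with the most reads, Mir378a with Gm25301, had 971961 and 552503 reads against 6 and 0. Mirlet7e with Gm25927 had 67222 and 30512 reads against none, Mir191 with Gm24083 had 56263 and 28628 against none, and Mir30e with Mir30f had 17465 and 11974 against none.

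In 4 of the 25 pairs the less abundant gene reached at least 1% in a library, as Mir126b did not; these were Mir3107, Mir3065, Mir3074-1 and Mir1b. Mir3107, opposite Mir486, took 3.18% and 2.82% of its pair's reads. The highest share, 30.5%, was that of Mir3074-1 opposite Mir24-1 in replicate 2, with 78 reads against 178, where replicate 1 had 10 against 614; this pair was chosen after its values were seen. Mir24-1 and Mir3074-1 share 20 bases with hairpins elsewhere, and so do Mir1a-2 and its partner Mir1b. Reads mapping to several places may be missing from these genes, so their shares are uncertain. Genes that overlap each other, such as Mir486 and Mir3107, were not compared for shared stretches. Reads that fit both genes of such a pair may be missing too, so the share of Mir3107 is also uncertain. In 24 of the 25 pairs the more abundant gene had 0 unstranded reads in both libraries, and Mir126a was the exception, with its 30 and 8.

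**Figure D3:**
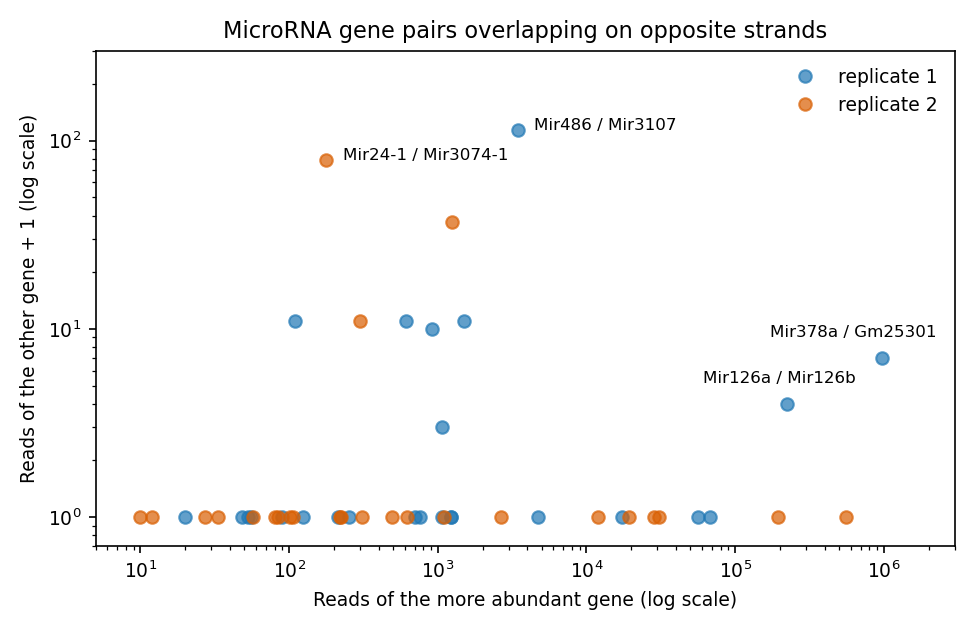
For the 25 overlapping pairs with at least 10 reads in both libraries, reads of the less abundant gene plus 1 against reads of the more abundant gene, both on log scales, with 1 point per pair and library. Mir126a with Mir126b lies far to the right with 3 and 0 reads on the other strand, whereas Mir24-1 and Mir486 have partners with up to 78 and 113 reads.

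By reads mapping to 1 place, Mir126a was among the most abundant microRNA genes of these heart libraries. Levels are given as reads scaled to 1000000 reads counted on the own strand of microRNA genes (CPM), of which there were 5237062 in replicate 1 and 3026501 in replicate 2. Mir126a stood at 42911 CPM in replicate 1 (exact 95% Clopper-Pearson interval 42738 to 43085) and at 63991 CPM in replicate 2 (63716 to 64267). The 2 intervals are far apart, and the mean was 53451 ± 14906 CPM (SD, n = 2). Replicate 2 was the higher library, by 1.49 times. Mir126b stood at 0.573 CPM in replicate 1 and had no read in replicate 2, where the exact interval for 0 reads reaches 1.22 CPM.

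By mean level Mir126a took rank 5 of the 2202 genes, rank 7 in replicate 1 and rank 4 in replicate 2. These ranks leave out the 41.1% and 39.9% of reads that mapped to several places. Genes with near copies elsewhere may therefore stand too low in this order. Mirlet7i, at rank 2, had 108604 and 129875 CPM, and Mirlet7g had 80535 and 86456 CPM. Both are let-7 genes, a family that restrains growth and marks differentiated cells, and both were above Mir126a in both libraries without overlap. Mirlet7d, with 54328 and 58664 CPM, lay within the spread of Mir126a. So did Mir23b, of a cluster with Mir27b and Mir24-1, with 54014 and 45495 CPM, and Mirlet7b overlapped it too with 49834 and 39701 CPM. The place of Mir126a among Mirlet7d, Mir23b and Mirlet7b was therefore not resolved by these libraries. Mir126a was above the other 3 in replicate 2 and below them in replicate 1, while those 3 kept their order. Mir23a, with 26885 and 35400 CPM, was below Mir126a in both. Mir23a and Mir23b share 20 bases with another hairpin, so reads mapping to several places, which are counted for no gene, may be missing from their levels.

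**Figure D4:**
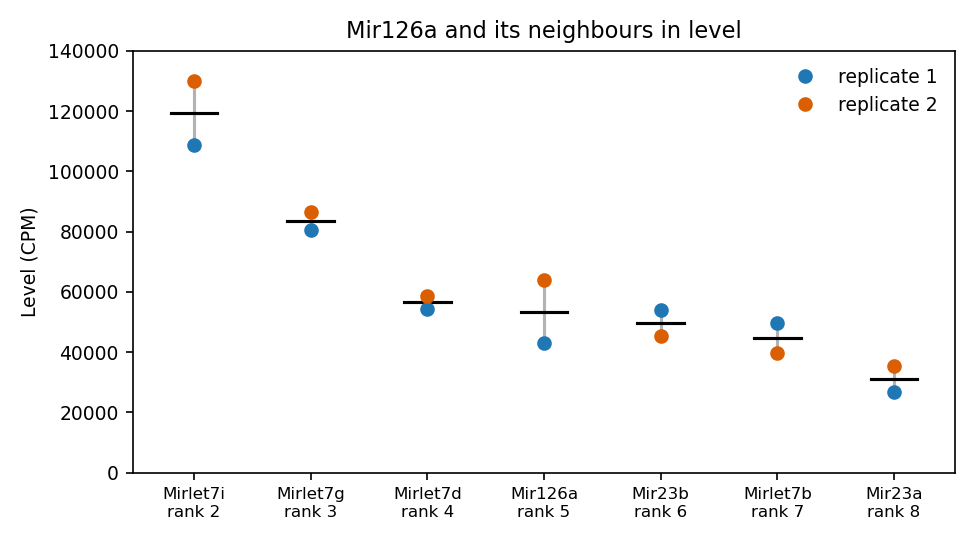
Levels in CPM of Mir126a, the 3 genes next above it and the 3 next below it, with 1 point per library, a black bar for the mean and a grey line for the range. The range of Mir126a, 42911 to 63991 CPM, overlaps those of Mirlet7d, Mir23b and Mirlet7b and not those of Mirlet7i, Mirlet7g and Mir23a.

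Mir126a was lower in replicate 1 than in replicate 2 beyond counting error. After TMM scaling, which sets the libraries to a common level over most genes, its log2 difference, replicate 1 minus replicate 2, was -0.71 (exact counting interval -0.72 to -0.70), or 1.64-fold lower. An exact two-sided binomial test with Benjamini-Hochberg adjustment over 430 genes called it, with a p too small to be held as a number other than 0. That test compares these 2 libraries by their reads and not conditions, and it called 238 of the 430 genes, or 55.3%, with 27.4% called lower and 27.9% called higher in replicate 1, so calls like that of Mir126a were common. The common biological coefficient of variation, the spread between libraries beyond counting error, was estimated by edgeR at 0.424, and at that value edgeR's exact test gave Mir126a an adjusted p of 1. That coefficient comes from the same 2 libraries that the test then compares, so few calls can be made by construction. At a fixed coefficient of 0.1 the adjusted p from edgeR was 0.00385, with 28.6% of all genes called. The direction was the same with every scaling tried, with log2 differences between -0.76 and -0.58, where TMM by itself shifted all genes by -0.13 relative to total counts.

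Compared with other well-covered genes, the size of the difference was above the median. There were 226 genes averaging 100 reads or more, for which the median size of the log2 difference was 0.40, or 1.32-fold, and 54 of them (23.9%) differed by more than Mir126a. Among the 20 most abundant genes, 2 differed by more, Mir22 and Mir99b. The 5 of these 226 genes whose difference was nearest to that of Mir126a, over 2 libraries, were Mir378d (log2 -0.71, 686 and 592 reads), Mir20a (log2 -0.73, 4337 and 3780 reads), Mir322 (log2 -0.68, 39385 and 33317 reads), Mir361 (log2 -0.67, 8389 and 7028 reads) and Mir350 (log2 -0.67, 922 and 771 reads). With 2 libraries such a likeness is a single number per gene.

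Other microRNAs with a known role in endothelium or vessel growth moved in both directions. Of 32 listed names, Mir126a and Mir126b among them, 29 matched a gene, 25 of these were detected and 26 could be tested. The list took 16.1% of counted reads in replicate 1 and 18.4% in replicate 2, and Mir126a, its most abundant gene, by itself 4.29% and 6.40%. Of the 26 tested, 15 were lower in replicate 1, Mir126a among them, 9 were higher and 2, Mir217 and Mir218-1, were not called. Over all genes tested, 27.4% were lower and 27.9% higher. With at least 50 reads in sum, 14 of 23 list genes were lower and 9 higher, beside 35.4% lower and 34.4% higher of 305 genes. The list's median log2 difference was -0.29 against -0.05 over all genes tested, and with total counts it was -0.16 against 0.08. With edgeR's exact test at the estimated coefficient of variation, 0 of the 26 were called, and 4 of all 430 genes (0.930%). A stretch of 20 bases recurs in another hairpin for 10 of the 29.

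Among the most abundant genes of the list, Mir23b and Mir23a, which act on vessel growth with Mir27 and Mir24, differed in direction. Mir23b was higher in replicate 1 (log2 0.11) and Mir23a lower (log2 -0.53). Mir322, a hypoxia-responsive microRNA of the X chromosome, was lower in replicate 1 as Mir126a was, at 7520 and 11008 CPM. Mir100 had almost equal levels of 5099 and 4860 CPM and its call turned with the scaling, lower in replicate 1 with TMM (log2 -0.06) and higher with total counts (log2 0.07). Mir27b, at 6459 and 2363 CPM, was 2.49-fold higher in replicate 1 after TMM scaling. Mir34a, a p53 target that rises with endothelial ageing, was lower in replicate 1 (log2 -0.54), and so was Mir130a, which represses antiangiogenic homeobox genes (log2 -0.27). Mir27b shares 20 bases with another hairpin, Mir322, Mir100, Mir34a and Mir130a do not.

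**Figure D5:**
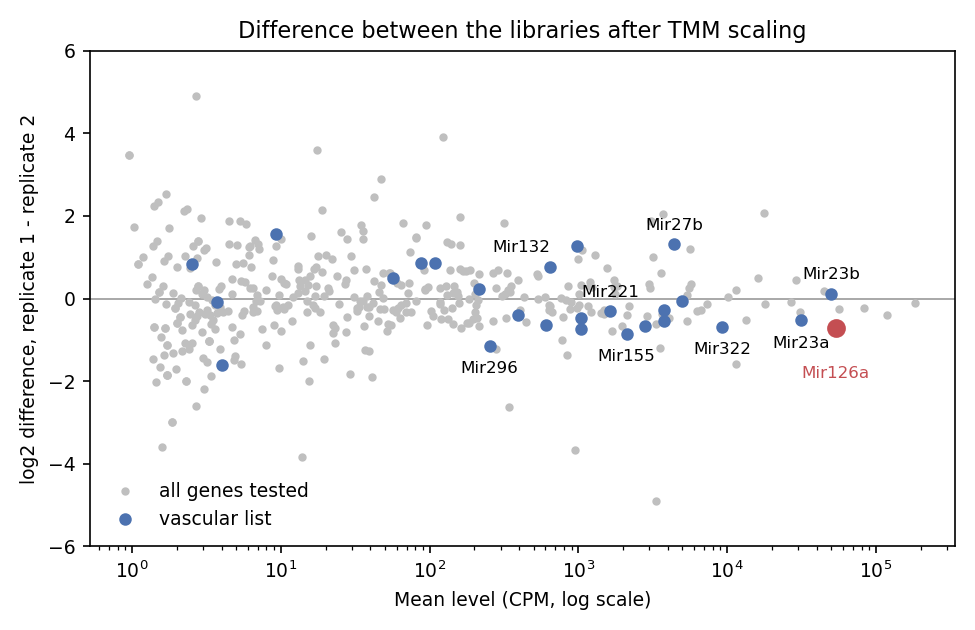
Log2 difference between the libraries, replicate 1 minus replicate 2 after TMM scaling, against the mean level in CPM on a log scale for the 430 genes tested; grey points are all genes, blue points the vascular list and the red point Mir126a. Mir126a lies at -0.71, below the middle of the cloud at high level, and the list spreads to both sides of 0.

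Genes of other cell types also differed between the libraries, and their part in the difference of Mir126a was not tested. The erythroid list, with 4 of 4 matched genes detected, took 0.102% of counted reads in replicate 1 and 0.739% in replicate 2, with Mir451a and Mir144 called lower in replicate 1 and Mir486 and Mir3107 called higher. The smooth muscle list took 3.03% and 3.39%, with Mir145b at 0. The leukocyte list took 0.386% and 0.415%, with Mir142b at 0; of its 5 tested genes, Mir155 was called lower in replicate 1 and the other 4 higher. The cardiomyocyte list took 0.520% and 0.346% of counted reads, and the fibroblast list 0.808% and 0.347%, with Mir199a-1 at 0. In each of these lists, 6 of 9 genes share 20 bases with another hairpin. In the cardiomyocyte list they are all its Mir1 and Mir133 genes. Reads that could not be placed uniquely were left out of the counts, so the shares of both lists may be too low. The 0.520% and 0.346% need not be the full part of cardiomyocyte microRNAs in these hearts. Counted shares were smaller still for the epithelial list, at 0.0734% and 0.0446%, and for the liver gene Mir122, at 0.00559% and 0.00704%. The neuronal list took 0.0344% and 0.0181%, with 5 of 9 genes at 0 and 8 of 9 sharing 20 bases with another hairpin. The difference of Mir126a was the same, -0.71, when the TMM factors were computed without the erythroid list. TMM factors rest on most of the 430 genes, so leaving out 4 could hardly move them. An erythroid part in the difference was not tested by this.

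Ratios within a library do not depend on scaling. For each read of Mir143, the leading smooth muscle gene, there were 1.47 reads of Mir126a in replicate 1 and 1.94 in replicate 2. Mir143 was called lower in replicate 1 (log2 -0.315), whereas Mir145a of the same list was called higher (log2 0.330, 6333 and 2653 reads). For each read of the cardiomyocyte gene Mir499, carried by the myosin gene Myh7b, there were 12.3 and 25.7, and for each read of Mir21a, the leading gene of the fibroblast list, 8.71 and 52.3. Of the 8 fibroblast genes tested, Mir21a among them, 3 were called higher in replicate 1, 3 lower and 2 not, with a median log2 difference of -0.01. Among the 8 cardiomyocyte genes tested, 2 were called higher, including Mir499, 1 lower, Mir1a-2, and 5 not, with a median of -0.235. The ratio to Mir155, the most abundant gene of the leukocyte list and also on the vascular list, was 27.0 and 24.4, and Mir155 was the only leukocyte gene called lower in replicate 1. The erythroid Mir451a, with 1223 and 19348 reads, differed far more than Mir126a, whereas Mir486 of the same list was higher in replicate 1 (log2 0.55). Reads of Mir486 that also fit its overlapping partner Mir3107 may be missing from that count. These ratios are to single genes and do not stand for their cell types.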

How the data were processed

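The deposited tables hold whole-number read counts per microRNA gene, not normalized, for each of 2 libraries. Per the deposited readme, they were made on mm10 with GENCODE M21; how adapters were trimmed and reads aligned and counted is not given in the sources used here. Of 3 columns without header, the values show the first to be unstranded, the second own strand and the third opposite strand. The 4 summary lines stayed out of library sizes. Of 12701590 and 7126319 reads, 41.1% and 39.9% mapped to several places and count for no gene; copies outside microRNA genes were not looked for. Names and positions are GENCODE M21's, sequences RefSeq's.

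Levels used the own-strand column. The binomial test doubled the smaller tail and took genes with at least 10 reads in sum, expected shares from TMM-scaled library sizes, a threshold of 0.05 and 0.5 reads added for log2 differences. It was tried on simulated counts with changes of known size and counting error only. These lacked the further spread between libraries seen here, so they do not give the test's error rate for these data. Named were the members, the genes nearest in level and in difference, the leading genes of the vascular list and the overlapping pairs with most reads. The members and lists were chosen with earlier results of these data known. With 2 libraries, p-values measure only the spread between these samples or counting error. Alternatives were other strand columns, denominators, scalings, filters and error models, and each library alone. Tools were edgeR 4.0.16, DESeq2 1.42.0 and R 4.3.3, Python 3.11.15 with scipy 1.17.1, and RNAfold 2.7.2.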

Additional observations from a re-analysis of the deposited data

How the results depend on the processing

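The level of Mir126a rests on the strand column: its mean was 5.70 CPM from the unstranded column and 1.11 CPM from the opposite-strand column, each over that column's total, and its rank was 296 unstranded. With all reads of a library as denominator it was 22435 CPM. From the opposite-strand column Mir126b would stand at 197484 CPM. Leaving out each library in turn gave 42911 to 63991 CPM for Mir126a, ranks 4 to 7, 0 to 0.573 CPM for Mir126b, a Mir126b share of 0 to 0.00133% and a vascular list share of 16.1% to 18.4%. The difference of Mir126a (log2 -0.71) lost its call with edgeR's exact test at the estimated coefficient of variation (adjusted p = 1), whose coefficient comes from the libraries compared, against adjusted p from 0 to 0.00385 under its other alternatives; 4 genes in all and 0 of the vascular list were then called, in place of 238 and 24. At a coefficient of 0.1, edgeR called 123 genes. Under the other scalings and filters the counts stayed within 1.5 times. The median log2 difference of the vascular list, -0.29, was -0.16 with total counts and -0.14 with no filter, against 0.08 and 0.21 over all genes tested. Mir126b had too few reads for a difference, so none was computed; with no filter its adjusted p by the binomial test was 0.805. No paired analysis was possible because there is only 1 group.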
